A study of Caenorhabditis elegans with 6 samples.

Results

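The 33 genes described here encode the machinery of macroautophagy and of the fusion of autophagosomes with lysosomes in Caenorhabditis elegans. They were chosen by symbol from a list of pathway genes, and all 33 were found among the 46748 genes of the deposited count table. All 33 are annotated as protein coding. The study compared 3 libraries of worms that carry crh-1(syb385), strain VDL786, with 3 libraries of the wild-type strain N2. The crh-1(syb385) allele is labelled a knockout of circ-crh-1, a circular RNA made from the gene of the worm CREB transcription factor. Both groups were whole worms, age-synchronized with hypochlorite, grown at 20 °C on OP50 bacteria and moved as L4 larvae to 25 µM 5-fluorodeoxyuridine (FUdR), an inhibitor of DNA synthesis that blocks progeny, and both were collected as day 1 adults. The knockout is represented by 1 strain, and the number of worms in a library and any outcrossing are not given in the sources used here. crh-1 itself had 17.9, 17.6 and 23.9 CPM in knockout and 20.6, 18.7 and 23.9 CPM in wild type (CPM, the count scaled to a common library size after TMM normalisation). These counts pool linear and circular transcripts and check nothing about the allele.

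Autophagy encloses cytoplasm in a double membrane and delivers it to the lysosome. The Atg1 kinase complex starts the process, a phosphatidylinositol 3-kinase complex marks the site, lipid supply proteins expand the membrane, and 2 ubiquitin-like conjugation reactions attach Atg8 proteins to it. Receptors bring cargo, and tethers such as the HOPS complex join the closed autophagosome to the lysosome. In C. elegans this pathway clears maternal P granule proteins from the somatic cells of embryos and is required for the long life of several mutants, and many of the epg genes were found in screens for embryos that fail to clear these granules.

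Total counts were 38974777 to 47444165 in knockout libraries and 40462731 to 42116982 in wild-type libraries, and every member had at least 48 counts in every library. Knockout replicate 2 stood apart, with 58.5% of its counts in rRNA genes, against 22.9% to 36.4% in the other 5 libraries, and it kept 14188050 protein-coding counts. Markers of intestine, muscle, neurons, hypodermis and germline were all detected, as whole worms hold these tissues, and sperm markers were low, with a sum over 10 genes that was lowest in knockout replicate 3, at 4.07 CPM, and highest in wild-type replicate 1, at 18.3 CPM. The 13 germline and oocyte markers differed among libraries of 1 genotype. Their summed level was 1567, 1586 and 5516 CPM in knockout replicates 1 to 3 and 2107, 3596 and 5020 CPM in wild-type replicates 1 to 3. In libraries from whole worms, fewer cells of a type and less RNA per cell cannot be told apart.

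The members differed widely in level, with lgg-1 far above the rest. Divided by exonic length, lgg-1, the GABARAP-type Atg8 protein that decorates autophagosomes, stood at 468 CPM per kilobase as a mean over the 6 libraries, and the next gene in order, epg-8, stood at 40.7 CPM per kilobase. The lowest library of lgg-1, at 327 CPM per kilobase, lay above the highest library of every other member. lgg-1 supplied 54.5%, 55.3% and 32% of the summed length-scaled level of all members in knockout replicates 1 to 3, and 46.7%, 50.3% and 33.7% in wild-type replicates 1 to 3. The other 32 members had a median of 16.8 CPM per kilobase. At the low end were sepa-1 at 2.62 CPM per kilobase and unc-51, the kinase that starts autophagy, at 1.91 CPM per kilobase, so that lgg-1 stood 245 times above unc-51. Between epg-8 and unc-51 each gene overlapped its neighbour in the order in its range over libraries. Overlap of ranges does not show whether 2 neighbours keep their order within each library, which was not tested.

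**Figure D1:**
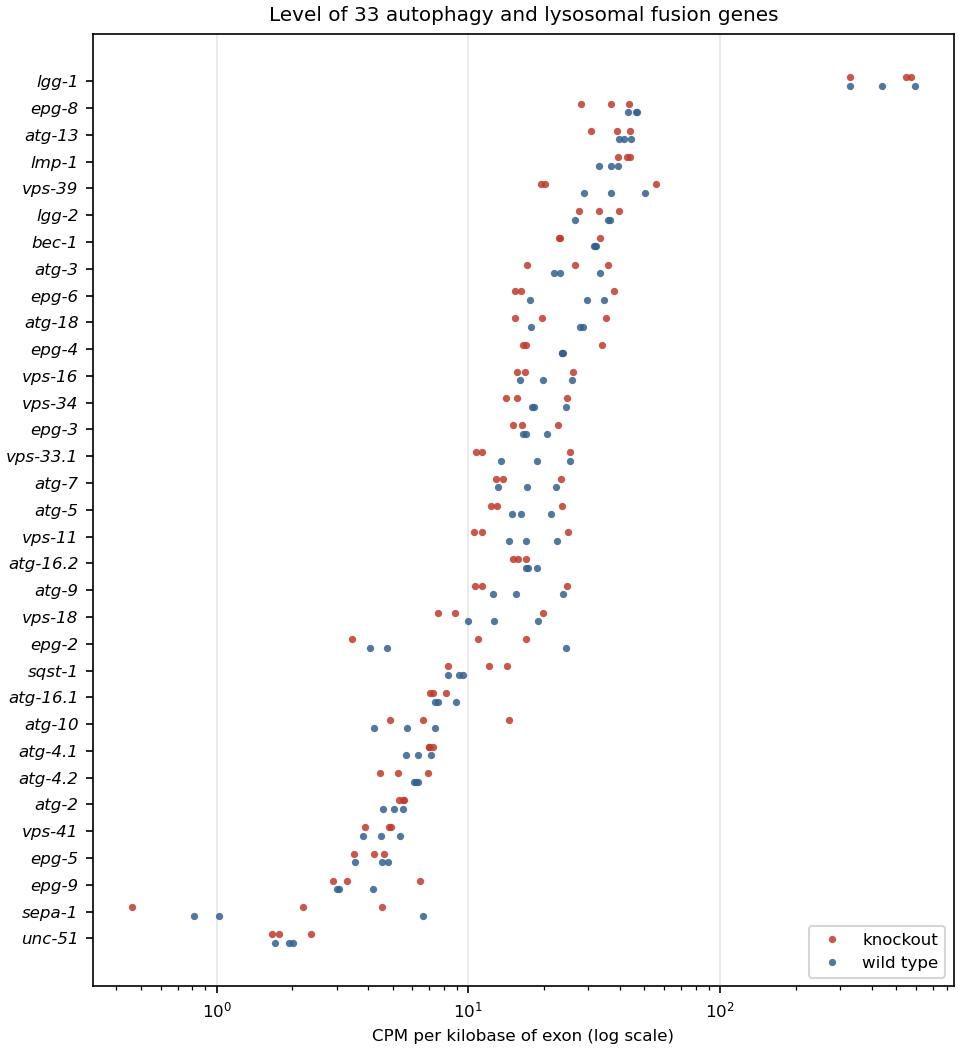
Level of each of the 33 genes in CPM per kilobase of exon on a log axis, ordered by the mean over 6 libraries, with 1 point per library, knockout in red and wild type in blue. The points of lgg-1 (327 to 593) lie to the right of all others, while neighbours among the other genes overlap.

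The comparison of the knockout with wild type asked whether loss of the circular RNA goes with a change in these transcripts. No member changed detectably. Of 33 members tested, 0 were called by edgeR's quasi-likelihood test, where 0% of all 14354 genes tested were called, and the smallest adjusted p of a member was 0.996. No member had an unadjusted p under 0.05, against 0.982% of all genes, and the smallest, that of sqst-1, was 0.22. A blocked edgeR fit, with replicate numbers as pairs, called 0 members (0.00697% of all genes) and gave 0 an unadjusted p under 0.05 (4.77% of all genes). DESeq2 also called 0 members (0.187% of all genes) and gave 0 members an unadjusted p under 0.05 (1.27% of all genes). The log2 fold changes ran from -0.33 for epg-8 to 0.58 for atg-10, and 31 members lay within 0.35 of 0. A fold change was below 0 in 22 members and above 0 in 11, with a median of -0.08, whereas 47.7% of all genes lay below 0, 52.3% lay above it and their median was 0.02. With library totals alone the split was 31 below and 2 above, where the median of all genes was -0.21. The median of the members depended on single libraries. Leaving out knockout replicate 1, 2 or 3 gave 0.03, 0.00 and -0.19, and leaving out wild-type replicate 1 or 3 gave -0.12 and 0.10. Every fit that leaves out a library, here and below, was unblocked and kept the same-numbered library of the other genotype. A change in such a fit can therefore hold a difference between replicate numbers as well as one between genotypes.

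The intervals of the unblocked fit show what size of change that fit could still hold. For 23 members the 95% interval of knockout relative to wild type lay between 0.5-fold and 2-fold. For 10 it reached past at least 1 of these bounds, and for sepa-1 (0.199 to 3.62) and epg-2 (0.287 to 3.07) past both. Unless stated, the SE of each gene is also from the unblocked fit. The median SE of the members was 0.31 in that fit and 0.21 in the blocked fit, so intervals with pairs would be narrower for most members. The groups failed to overlap in 1 member, atg-16.2, which was lower in each knockout library, while 3.28% of all genes had groups that did not overlap, 1.56% with knockout lower and 1.72% with knockout higher. Libraries with the same replicate number were set against each other as pairs, since their deviations from the group means correlated across genes. The difference had 1 sign in all 3 pairs for 6 members (atg-4.1, atg-10 and lmp-1 on the higher side, atg-13, atg-16.2 and vps-33.1 on the lower side), beside 21.6% of all genes, 11.2% on the higher side and 10.4% on the lower. Knockout lay below wild type for 22 members in the replicate 1 pair, for 25 in the replicate 2 pair and for 7 in the replicate 3 pair, with median differences of -0.13, -0.35 and 0.07 in log2 CPM. In the same order, the germline and oocyte markers differed by -0.55, -1.04 and 0.14, and the 9 sperm markers tested differed by -0.14, -1.21 and -1.27. All 9 sperm markers lay below 0 under each scaling tried, at a median of -0.75 in log2 fold change, and 0 were called by edgeR, and all 13 germline and oocyte markers did so at a median of -0.31, again with 0 called. The part of these tissues in the members' differences was not tested.

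**Figure D2:**
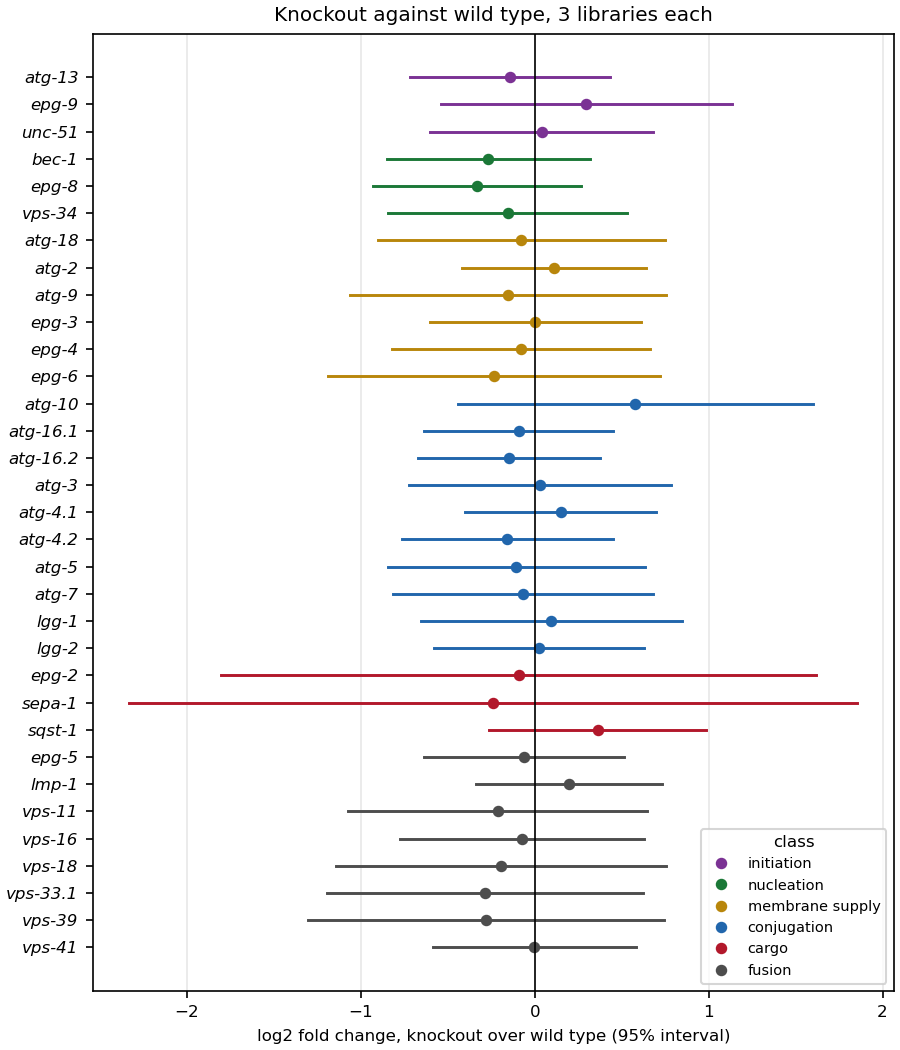
Log2 fold change of each member, knockout over wild type, from edgeR, with its 95% interval and coloured by class. All 33 intervals span 0, and those of the cargo genes sepa-1 and epg-2 are the widest.

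Among the 3 members of the Atg1 kinase complex, the scaffold gene atg-13 (WBGene00017045, III) was the most abundant. It had 65.6, 46 and 58.4 CPM in knockout libraries and 66, 62.3 and 59.1 CPM in wild-type libraries. Knockout replicate 2 was the lowest of the 6 and the groups overlapped (log2 fold change -0.14, SE 0.25; by edgeR, adjusted p = 0.996). unc-51 (WBGene00006786, V), the ULK1 kinase homologue, had 4.83, 6.89 and 5.11 CPM in knockout and 5.59, 4.93 and 5.83 CPM in wild type. Its groups overlapped fully, and its fold of 1.03 had an interval of 0.66 to 1.6. epg-9 (WBGene00022078, IV), the homologue of the complex subunit ATG101, had 4.28, 9.43 and 4.88 CPM in knockout and 4.44, 6.16 and 4.5 CPM in wild type. The high value of knockout replicate 2 made up its log2 fold change of 0.30 (SE 0.37), which was -0.13 without that library. The values of unc-51 and atg-13 also turned sign without knockout replicate 2, at -0.12 and 0.00, and that of unc-51 was -0.03 without wild-type replicate 2.

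The 3 genes of the phosphatidylinositol 3-kinase complex had a median of -0.27, below 0 in all 3 genes under each scaling tried, and none was called. bec-1 (WBGene00000247, IV), the Beclin 1 homologue, had 30.6, 30.8 and 44.4 CPM in knockout libraries and 42.7, 42.1 and 42.4 CPM in wild-type libraries. The wild-type libraries lay within 1 CPM of each other, while knockout replicate 3 lay above them and the other knockout libraries below (log2 fold change -0.27, SE 0.26; by edgeR, adjusted p = 0.996). epg-8 (WBGene00013695, I), the homologue of ATG14, which directs the kinase to autophagy, had 53.7, 40.7 and 63.3 CPM in knockout and 67.7, 68.1 and 62.6 CPM in wild type. Knockout replicate 3 exceeded wild-type replicate 3, so that the groups overlapped (-0.33, SE 0.26; edgeR adjusted p = 0.996). vps-34, the catalytic kinase, averaged 53.9 ± 16.9 CPM in knockout and 60.1 ± 10.9 CPM in wild type (SD, n = 3 each). The values of bec-1 and epg-8 stayed below 0 whichever library was left out, with -0.46 and -0.47 without knockout replicate 3. They were -0.17 for bec-1 without knockout replicate 1 and -0.17 for epg-8 without knockout replicate 2, and that of vps-34 was 0.05 without wild-type replicate 3.

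Of the 6 genes that supply membrane, atg-2 was the steadiest over libraries and atg-9, atg-18 and epg-6 among the more variable. atg-2 (WBGene00019748, X), a lipid transfer protein at the contact of autophagosome and endoplasmic reticulum, had 40.9, 40.9 and 39.1 CPM in knockout and 34, 37.5 and 40.7 CPM in wild type. Its fold of 1.08 had an interval of 0.748 to 1.56. atg-9 (WBGene00020706, V), a lipid scramblase and the transmembrane protein of the core machinery, had 33.9, 31.7 and 73.6 CPM in knockout and 37.5, 46.4 and 71.1 CPM in wild type. Both replicates 3 were high, and the spread inside each genotype was larger than the difference between them (-0.15, SE 0.40). epg-6 (WBGene00012641, III), a WIPI-type protein that binds phosphatidylinositol 3-phosphate, had 23.3, 24.6 and 57.8 CPM in knockout and 26.7, 45.2 and 52.5 CPM in wild type. It was the member nearest to crh-1, 1.06 megabases away, and its groups overlapped (-0.23, SE 0.42). atg-18, the other WIPI-type protein of the list, averaged 41 ± 18.4 CPM in knockout and 43.3 ± 10.5 CPM in wild type. epg-3, the homologue of the endoplasmic reticulum protein VMP1, averaged 30.2 ± 6.98 CPM in knockout and 30.1 ± 3.8 CPM in wild type. epg-4, the homologue of EI24 in the same membrane, is given by library because of its pattern, seen in the values first, and had 25.8, 26.5 and 53 CPM in knockout and 37.3, 36.8 and 36.9 CPM in wild type (all n = 3). Like bec-1, epg-4 had wild-type libraries close together and knockout libraries on both sides of them. The fold changes of atg-9, atg-18, epg-3, epg-4 and epg-6 turned sign in at least 1 of the 6 fits that left out a library, and that of atg-2 did not.

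The 10 genes of Atg8 and Atg12 conjugation had a median log2 fold change of -0.02, with 5 on each side of 0, and the median was 0.04 with upper-quartile scaling and -0.22 with library totals alone. lgg-1 (WBGene00002980, II) had 391, 408 and 233 CPM in knockout libraries and 312, 422 and 232 CPM in wild-type libraries. Both replicates 3 were the lowest, and the genotypes covered nearly the same range (0.09, SE 0.33). lgg-2 (WBGene00002981, IV), the LC3-type Atg8 protein, had 28.9, 34.7 and 41.6 CPM in knockout and 27.8, 37.5 and 38.2 CPM in wild type. Both replicates 1 were the lowest and the groups overlapped (0.02, SE 0.27). Both fold changes turned sign without at least 1 library, and ranged from -0.05 to 0.34 for lgg-1 and from -0.11 to 0.15 for lgg-2.

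The largest fold change of all members was that of atg-10 (WBGene00008427, II), the E2-like enzyme of Atg12 conjugation. It had 3.47, 7.63 and 2.59 CPM in knockout and 3.01, 3.88 and 2.24 CPM in wild type. Its value was 0.58 (SE 0.45, adjusted p = 0.996 by edgeR). It was 0.01 without knockout replicate 2, in a fit that kept wild-type replicate 2. Within pairs, knockout lay above wild type by 0.21, 0.97 and 0.21 in log2 CPM for replicates 1 to 3. The blocked fit gave 0.47 (SE 0.28). Knockout replicate 2 is the library with 58.5% of its counts in rRNA genes, whose part in the value was not tested. The other E2-like enzyme, atg-3, averaged 26.8 ± 9.57 CPM in knockout and 26.3 ± 6.38 CPM in wild type. The E1-like enzyme atg-7, which serves both reactions, averaged 34.8 ± 12.1 CPM in knockout and 36.5 ± 9.65 CPM in wild type. atg-5, the acceptor of Atg12, averaged 17.3 ± 6.71 CPM in knockout and 18.6 ± 3.65 CPM in wild type (SD, n = 3 each). In all 3 of these genes both replicates 3 were the highest libraries, and their fold changes turned sign without at least 1 library.

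The Atg4 proteases trim Atg8 proteins before conjugation, and the Atg16 proteins hold the Atg12-Atg5 conjugate at the membrane. atg-4.1 (WBGene00013595, I) had 11.4, 11.4 and 11.9 CPM in knockout and 10.3, 9.24 and 11.7 CPM in wild type, and its paralogue atg-4.2 (WBGene00014080, IV) had 8.85, 7.55 and 11.7 CPM in knockout and 10.3, 10.5 and 10.6 CPM in wild type. Another gene on the same strand, Y87G2A.24, overlaps atg-4.1, and reads shared by both were not counted. atg-16.1 (WBGene00017178, X) had 14.3, 13.9 and 16 CPM in knockout and 14.9, 17.7 and 14.5 CPM in wild type. atg-16.2 (WBGene00019427, II) had 31.2, 27.7 and 29 CPM in knockout and 31.7, 34.5 and 31.2 CPM in wild type, with knockout replicate 1 just under wild-type replicate 3. The difference was -0.15 on the log2 scale (SE 0.23; adjusted p = 0.996 by edgeR). The separation of its groups was absent with upper-quartile scaling and with library totals alone.

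Ratios of related genes within a library do not depend on scaling. Per exonic length, lgg-2 stood at 0.0501, 0.0575 and 0.121 of lgg-1 in knockout replicates 1 to 3 and at 0.0602, 0.0603 and 0.111 of lgg-1 in wild-type replicates 1 to 3. The ratio was highest in both replicates 3 and lower in the other 4 libraries. In log2 it averaged -3.83 ± 0.68 in knockout and -3.76 ± 0.51 in wild type (SD, n = 3 each; exact permutation p = 0.8, two-sided). The log2 ratio of atg-4.2 to atg-4.1 averaged -0.37 ± 0.29 in knockout and -0.03 ± 0.16 in wild type (exact permutation p = 0.2). Knockout replicate 3 lay inside the wild-type range and the other knockout libraries below it. The difference of -0.34 was -0.20 without knockout replicate 2 and -0.49 without knockout replicate 3, where the exact permutation p of 0.1 is the smallest that 2 against 3 libraries can give. The log2 ratio of atg-16.2 to atg-16.1 averaged 1.09 ± 0.14 in knockout and 1.15 ± 0.07 in wild type (exact permutation p = 0.7). These 3 ratios were the family tested, with exact permutation p adjusted to 0.8, 0.6 and 0.8, and 3 libraries against 3 cannot give a p below 0.1. The permutations took the libraries as unpaired, so spread between replicate numbers enters these p-values.

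**Figure D3:**
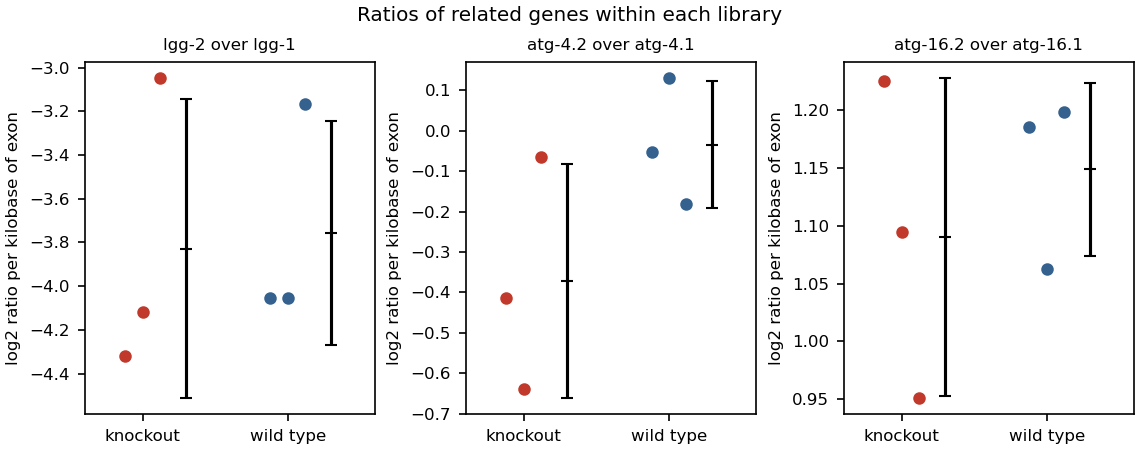
Log2 ratio of 2 related genes per kilobase of exon in each library, with knockout left of wild type in each panel and the mean and SD beside the points. Knockout and wild type overlap in all 3 panels, and in the lgg panel the highest point of each genotype is replicate 3.

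Of the 3 cargo factors, sepa-1 and epg-2 varied more among libraries than any other member, and sqst-1 varied less. sqst-1 (WBGene00011737, IV), the p62 receptor that links ubiquitinated cargo to Atg8, had the smallest p of all members in the unblocked edgeR fit. The smallest was that of vps-39 with the replicate block and that of atg-10 with DESeq2. sqst-1 had 34.8, 29.5 and 20.3 CPM in knockout libraries and 23.2, 20.3 and 22.4 CPM in wild-type libraries. The knockout replicates 1 and 2 lay above every wild-type library and knockout replicate 3 did not (0.36, SE 0.27; edgeR adjusted p = 0.996; interval of the fold 0.835 to 1.98). Its value stayed above 0 whichever library was left out, between 0.18 and 0.56. sepa-1 (WBGene00010808, I), the receptor that joins PGL granule proteins to autophagosomes in embryos, had 1.02, 10 and 4.86 CPM in knockout and 2.25, 14.6 and 1.79 CPM in wild type. Its highest library stood 14.4 times above its lowest. epg-2 (WBGene00021468, I), the scaffold of the same granules, was added after its values were seen, and had 7.88, 39 and 24.9 CPM in knockout and 10.9, 56.1 and 9.35 CPM in wild type. In both genes the replicates 2 were the highest 2 libraries, a placing shared by 10.6% of all genes, and the log2 fold changes of -0.24 (SE 0.92) and -0.09 (SE 0.75) became 1.38 and 1.24 without wild-type replicate 2 and -1.15 and -0.70 without knockout replicate 2. Markers of early embryos were near 0, and their sum over 8 genes was 0.402, 2.99 and 0.695 CPM in knockout and 0.818, 3.37 and 0.536 CPM in wild type. The replicates 2 were thus also the highest for this sum, while knockout replicate 3, next in order for sepa-1 and epg-2, lay under wild-type replicate 1 in it. The 1 embryo marker that passed the filter, end-3, did not have both replicates 2 highest. The placing was shared by 5 of 7 muscle markers, 3 of 7 neuron markers, 0 of 9 intestine markers and the members lgg-1, atg-10 and epg-9. The part of embryos or of other tissues in the levels of sepa-1 and epg-2 was not tested.

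**Figure D4:**
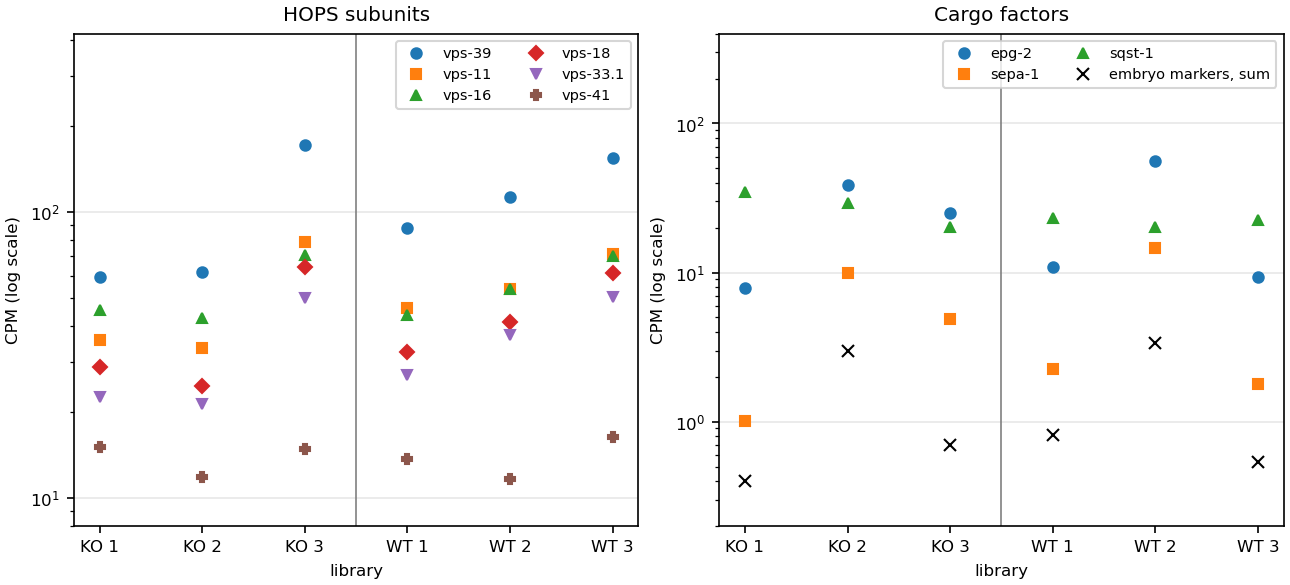
CPM on a log axis of the 6 HOPS subunits (left) and of 3 cargo factors with the sum of 8 embryo markers (right) in each library, knockout (KO) left of wild type (WT). vps-41 stays between 11.7 and 16.4 CPM where the other HOPS subunits are high in both replicates 3, and sepa-1 and epg-2 are highest in both replicates 2.

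The HOPS complex tethers late endosomes and autophagosomes to lysosomes, and 5 of its 6 subunits lay below 0 under each scaling tried, while vps-41, at -0.00, turned to 0.02 with RLE factors and 0.09 with upper-quartile factors. The median of the 6 was -0.20 and none was called. vps-39 (WBGene00011625, V), a subunit specific to HOPS, had 59.5, 61.9 and 171 CPM in knockout and 88.1, 112 and 155 CPM in wild type. Knockout replicate 3 was the highest of all libraries and the other knockout libraries the lowest (-0.28, SE 0.45, edgeR adjusted p = 0.996). With the replicate block the value of vps-39 was -0.43 (SE 0.24, edgeR adjusted p = 0.771). vps-33.1 (WBGene00015130, III), the Sec1/Munc18 subunit that acts on SNARE proteins, had 22.5, 21.2 and 50.2 CPM in knockout and 26.8, 37.3 and 50.6 CPM in wild type. Both replicates 3 were the highest and knockout replicates 1 and 2 the lowest (-0.29, SE 0.40). The core subunits vps-11, vps-16 and vps-18 averaged 49.3 ± 25.3, 52.9 ± 15.5 and 39.2 ± 21.9 CPM in knockout and 57.1 ± 12.9, 55.8 ± 13.3 and 44.9 ± 14.7 CPM in wild type (SD, n = 3 each). In these 5 subunits the highest library stood 1.66 to 2.87 times above the lowest. The sixth, vps-41, like vps-39 a subunit specific to HOPS, averaged 13.9 ± 1.78 CPM in knockout and 13.9 ± 2.35 CPM in wild type. The ratio between its extreme libraries was 1.4. The fold changes of all 6 turned sign without wild-type replicate 3, in an unblocked fit that kept knockout replicate 3. As mean log2 CPM around each gene's own mean, the complex stood at -0.39, -0.52 and 0.54 in knockout replicates 1 to 3 and at -0.19, 0.05 and 0.51 in wild-type replicates 1 to 3. The germline and oocyte markers stood at -0.82, -0.77 and 0.87 in the same knockout libraries and at -0.27, 0.27 and 0.72 in the wild-type libraries, and their part in the levels of the complex was not tested.

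The remaining fusion genes were steady. lmp-1 (WBGene00003053, X), a LAMP-type protein of the lysosomal membrane, had 40.9, 45.7 and 44.4 CPM in knockout and 38.4, 34.6 and 41.2 CPM in wild type. Wild-type replicate 3 lay just above knockout replicate 1, so that the groups overlapped by that pair alone (0.20, SE 0.23; edgeR adjusted p = 0.996). epg-5, a tether that recognises late endosomes and lysosomes, averaged 19.8 ± 2.73 CPM in knockout and 20.6 ± 3.12 CPM in wild type (SD, n = 3 each).

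Many members varied together among libraries of 1 genotype. In 16 of 33 members the 2 highest libraries were knockout replicate 3 and wild-type replicate 3, as they were in 29.4% of all genes and in 13 of 13 germline and oocyte markers. These members were 6 of the conjugation class, 4 of the membrane class, 5 HOPS subunits and vps-34. lgg-1 went the other way, with both replicates 3 lowest. The 4 members on the X chromosome (atg-2, atg-16.1, lmp-1 and vps-41) held none of the 16, and their highest library stood 1.2 to 1.4 times above the lowest, against 1.24 to 14.4 times for the 29 autosomal members. This split by chromosome was seen in the values first and was not tested. Over all tested protein-coding genes the share with both replicates 3 highest was 14.7% on the X chromosome and 32.9% on autosomes. The ratio of highest to lowest library hardly differed over the same genes, with a median of 2.18 on the X chromosome and 2.24 on autosomes. As background, the X chromosome is largely silenced in the C. elegans germline. The part of the germline in the members' levels was not tested.

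**Figure D5:**
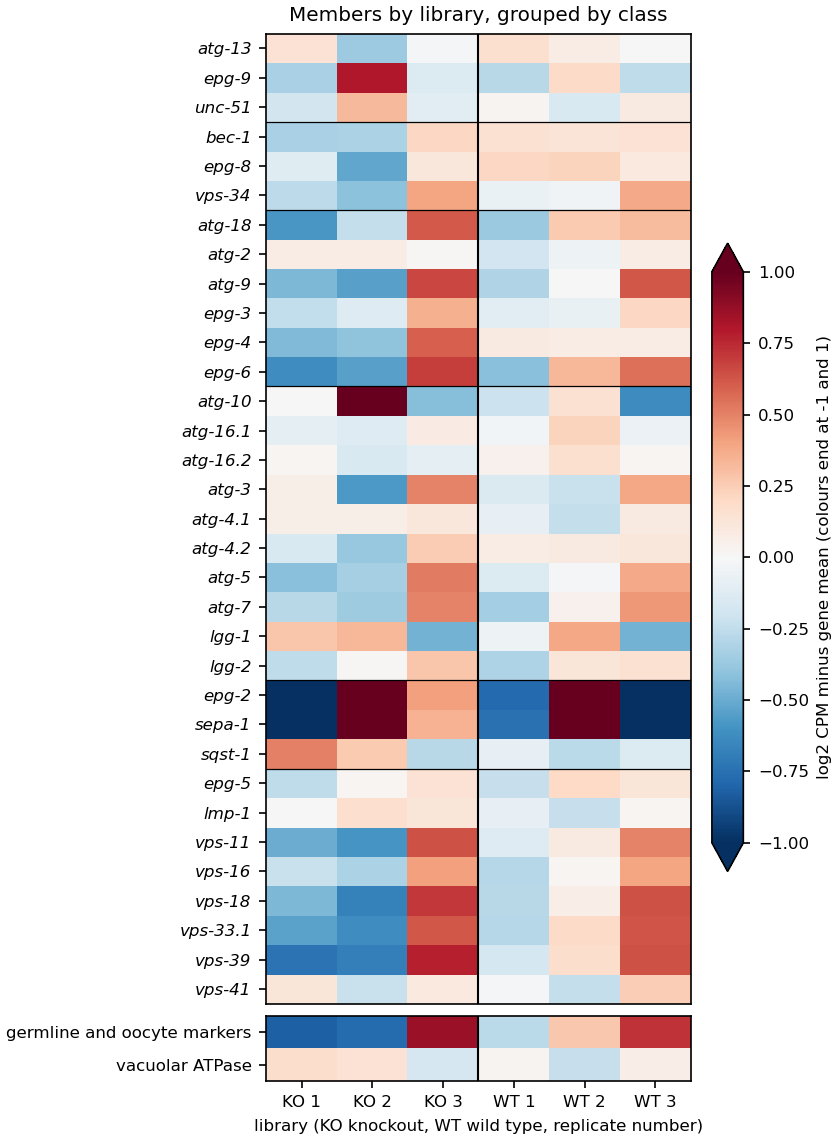
Log2 CPM of each member minus its mean over the 6 libraries (colour), by class, with the mean level of 13 germline and oocyte markers and 21 vacuolar ATPase genes below; knockout libraries are left of the line and wild-type libraries right of it. In 16 of 33 members both replicates 3 are the highest libraries, as in the germline row, while sepa-1, epg-2, lgg-1 and sqst-1 differ from that pattern.

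Spread within a genotype was wider in the knockout. The SD of log2 CPM was larger in knockout than in wild type for 26 of 33 members, close to the 78.2% of all genes, with a median SD of 0.43 in knockout and 0.26 in wild type. For all genes the median SD was 0.55 in knockout and 0.33 in wild type. Without knockout replicate 3, 8 of 33 members had an unadjusted p under 0.05 (edgeR), not far from the share of all genes, 19.3% of 14926. The smallest adjusted p of a member was 0.231 (edgeR). The 8 were vps-39, vps-11, vps-33.1, epg-6, vps-18 and epg-4 on the lower side and sqst-1 and atg-10 on the higher side, with vps-39 at -0.96 (SE 0.29). That fit kept wild-type replicate 3, which together with knockout replicate 3 was highest in 16 of 33 members.

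Other genes of the pathway were likewise without a call. Of 9 further autophagy factors tested, 0 were called and 6 lay below 0, or 4 with upper-quartile factors, with a median of -0.02, among them the TFEB homologue hlh-30 at 0.27 (SE 0.33), the TOR kinase gene let-363 at -0.20 (SE 0.37) and lgg-3, the worm Atg12, at -0.06 (SE 0.28). Of 8 genes of mitophagy and selective cargo, 7 lay below 0, with pink-1 at -0.28 (SE 0.34) and the granule protein gene pgl-3 at -0.27 (SE 0.46). Of 13 Rab, SNARE and other fusion factors, 10 lay below 0, with a median of -0.09, and 7 did with upper-quartile factors. Among them were syx-17, the SNARE of the autophagosome, at -0.27 (SE 0.30) and rab-7, the GTPase of late endosomes, at 0.04 (SE 0.32). Of 8 lysosomal membrane genes 5 lay above 0, or 2 with library totals alone, with spin-1 at 0.50 (SE 0.27), the largest of that list. Of 21 vacuolar ATPase genes, which acidify the lysosome, 18 lay above 0, with a median of 0.18, but 2 did with library totals alone, with a median of -0.09, and vha-18, vha-7 and unc-32 lay at -0.42, -0.21 and -0.21. The level of this list was 0.17, 0.14 and -0.17 in knockout replicates 1 to 3 and 0.03, -0.23 and 0.06 in wild-type replicates 1 to 3, and the 9 intestine markers stood at 0.47, 0.14 and -0.23 in knockout and 0.04, -0.60 and 0.17 in wild type, as mean log2 CPM around each gene's own mean. No gene of these lists was called, where 0% of all genes were, and none had an unadjusted p under 0.05, against 0.982% of all genes (edgeR).

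The members lie on all 6 chromosomes, with 6 each on I, II and III, 7 on IV and 4 each on V and X. None lay within 500 kb of crh-1 on chromosome III. In WBcel235 coordinates as the count table gives them, lgg-1 spans II, 6346957 to 6347719, on the minus strand with 2 exon intervals, and lgg-2 spans IV, 10934191 to 10935903, on the minus strand with 4. bec-1 spans IV, 5661142 to 5664425, sqst-1 spans IV, 12034252 to 12037051, and atg-10 spans II, 8659133 to 8659800. For 10 members another protein-coding gene on the same strand ended within 500 bases upstream, as between let-70 and atg-7, 30 bases apart. For 3 members an annotated gene on the same strand overlapped the span, which leaves the counts of atg-4.1, epg-4 and vps-41 less certain.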

How the data were processed

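The authors deposited raw counts of read pairs per gene, made with featureCounts 1.5.0 over exons with strand setting 2 on the Ensembl WBcel235 annotation, per the file headers. Reads that fit several genes were left out, since the header's command has no option for them. HISAT2 2.1.0 and bcl2fastq 2.19 are named in the submitters' processing notes, with DESeq2 1.26.0. A TruSeq Stranded Total RNA (Gold) kit and 1 µg of total RNA were used, per the labels' protocols. A count pools linear and circular transcripts of a gene.

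Symbols came from Ensembl release 115, in which 46449 of 46748 genes had an entry. Exonic length is the Length column of the deposited table. Counts were filtered by filterByExpr (minimum count 10, total 15), scaled by TMM and tested with edgeR 4.0.16 in R 4.3.3 (quasi-likelihood, edgeR 4 method, robust) on all genes without covariates. P-values were adjusted by Benjamini-Hochberg over 14354 genes at 0.05. The SE was obtained from each log2 fold change by dividing its size by the root of the F statistic. log2 CPM used a prior count of 2. Alternatives included DESeq2 1.42.0 and limma 3.58.1 (voom). The fits were tested on simulated counts that held no effect shared by replicate number, so they were not checked under such an effect.

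Members and lists were chosen with earlier results of these data known. Named genes were lgg-1, lgg-2, bec-1, unc-51, sqst-1, the extremes of level per length, in each class the 2 members with the smallest p and the most abundant, the paralogues, and any member within 500 kb of crh-1; others are given by mean and SD.

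After subtraction of group means, same-numbered libraries correlated across genes with 0.65, 0.48 and 0.58, so the numbers were taken as pairs, although the labels describe independent replicates and nothing in them tells what same-numbered libraries have in common. No library was a copy of another (smallest chi-square per degree of freedom 93.5). Nothing in the labels says that replicates came from separate cultures, so p-values measure only the spread between these libraries, which may be technical.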

Additional observations from a re-analysis of the deposited data

How the results depend on the processing

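With 0 members called by edgeR's quasi-likelihood test, 0 were called under each alternative run: RLE factors, upper-quartile factors, library totals alone, no filter on low counts, a filter of 1 CPM in 3 libraries, DESeq2, limma-voom, the replicate block, protein-coding genes only, an adjusted p of 0.1 and each library left out. The block gave a smallest member p of 0.099, that of vps-39 (edgeR adjusted p = 0.771), and moved no member's call. Over all genes, where edgeR called 0 and gave 141 an unadjusted p under 0.05, the calls were 5 with library totals alone, 31 with DESeq2 and 1 with the block. Members whose groups did not overlap numbered 1, and 0 with upper-quartile factors, 0 with library totals alone and 2 with the 1 CPM filter. Members of 1 sign in all pairs numbered 6, and 3 with library totals alone, 5 with RLE factors, 5 with the 1 CPM filter and 7 with upper-quartile factors. Over all genes the shares with TMM were 3.28% without overlap and 21.6% of 1 sign in all pairs. The shares under the alternatives are not given here, so changes in these 2 counts cannot be read as particular to the members. With all libraries kept, the member median ran from -0.28 with library totals alone, which moved the median of all genes to -0.21, to -0.03 with upper-quartile factors, which moved it to 0.11. With 1 library left out it ran from -0.19 without knockout replicate 3 to 0.10 without wild-type replicate 3, and so turned sign. Each such fit was unblocked and kept the same-numbered library of the other genotype. With library totals alone the median of all genes was -0.21, against 0.02 with TMM. Signs turned with library totals alone for lgg-1 (-0.20), lgg-2 (-0.20), atg-3 (-0.11), atg-4.1 (-0.079), unc-51 (-0.25), epg-9 (-0.069), atg-2 (-0.13), epg-3 (-0.20) and lmp-1 (-0.045). They turned for vps-41 (0.015) with RLE factors, for vps-41 (0.012) with no filter, for vps-41 (0.0042) with the 1 CPM filter and for vps-41 (0.0072) with DESeq2. They also turned with upper-quartile factors for epg-5 (0.021) and vps-41 (0.090), and with voom for atg-3 (-0.0077), epg-3 (-0.014), epg-2 (0.12) and vps-41 (0.013), and with the replicate block for atg-3 (-0.010), epg-3 (-0.013), epg-2 (0.12) and vps-41 (0.0023), and with protein-coding genes only for lgg-2 (-0.015), atg-3 (-0.0052) and epg-3 (-0.028); the cause was not tested. With each library left out in turn, 9 members kept their sign, with lowest and highest log2 fold changes of atg-4.1 0.069 to 0.28, atg-4.2 -0.34 to -0.023, atg-10 0.0059 to 0.88, atg-16.2 -0.19 to -0.096, bec-1 -0.46 to -0.17, epg-8 -0.47 to -0.17, atg-2 0.098 to 0.22, sqst-1 0.18 to 0.56 and lmp-1 0.13 to 0.30. The other 24 turned it, with lgg-1 -0.049 to 0.34, lgg-2 -0.11 to 0.15, atg-3 -0.25 to 0.29, atg-5 -0.46 to 0.11, atg-7 -0.39 to 0.20, atg-16.1 -0.14 to 0.0016, unc-51 -0.12 to 0.14, atg-13 -0.26 to 0.0036, epg-9 -0.13 to 0.50, vps-34 -0.44 to 0.050, atg-9 -0.65 to 0.20, atg-18 -0.49 to 0.15, epg-6 -0.78 to 0.030, epg-3 -0.19 to 0.16, epg-4 -0.49 to 0.10, sepa-1 -1.15 to 1.38, epg-2 -0.70 to 1.24, epg-5 -0.14 to 0.043, vps-11 -0.71 to 0.032, vps-16 -0.33 to 0.17, vps-18 -0.75 to 0.15, vps-33.1 -0.80 to 0.022, vps-39 -0.96 to 0.015, vps-41 -0.11 to 0.17. The difference in log2 ratio of lgg-2 to lgg-1 ran from -0.46 to 0.22, that of atg-4.2 to atg-4.1 from -0.49 to -0.20 and that of atg-16.2 to atg-16.1 from -0.13 to 0.011. The lowest count of a member in a library was 48, and for 10 members the interval of the fold, from the unblocked fit, reached past 2-fold.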
